A study of Mus musculus with 22 samples.

Results

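Transcripts of the contractile apparatus of vascular smooth muscle were followed in the epididymal white fat of mice kept for 6 hours in air with 12% or 20.9% oxygen. The 10 genes are Acta2, Actg2, Tpm2, Cnn1, Tagln, Lmod1, Myh11, Myl9, Mylk and Des. They were chosen by name, as every biological spot that carries one of these names, out of 34741 gene names on the array. Of the 10, 9 had a probe bright enough to be tested, among 16575 tested genes, and Lmod1 did not.

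The hypoxia group holds 10 mice at 12% oxygen and the normoxia group 12 mice at 20.9% oxygen. Both groups are male C57BL/6JOlaHsd mice, an inbred strain, that ate a purified diet with 10% of its energy from fat for 3 weeks and then one with 40% for 6 weeks, and that were fasted and exposed in an indirect calorimetry system. The treatment text also speaks of low-fat feeding without naming any mouse. Each array took the Cy5-labelled RNA of 1 mouse together with 1 common Cy3-labelled pool, mixed in equal molar amounts from the samples; the dyes were never swapped, and the series text calls the mice of a group biological replicates. A value below is therefore a log2 ratio of 1 mouse to the pool, and differences are hypoxia minus normoxia on that scale.

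Vascular smooth muscle cells wrap arteries, arterioles and larger veins and set the width of the vessel. Calcium entering the cell binds calmodulin and activates myosin light chain kinase, which phosphorylates the regulatory light chain, and the myosin motor then pulls on thin filaments of smooth muscle actin. The genes of this apparatus are known to be switched on together by serum response factor (SRF) with myocardin or its relatives, which bind CArG boxes in their promoters and introns. Smooth muscle cells that divide or take up a synthetic state are known to lose these transcripts. In whole fat, fewer smooth muscle cells and less RNA per cell cannot be told apart.

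The promoters are shown first because CArG boxes are the best known feature that the contractile genes share. The RefSeq table (GRCm38.p6) holds a promoter for 7 of the 10 genes, and none was matched for Tagln, Myh11 and Actg2. A CArG box was searched on both strands in the 250 bases before the start as CC, 6 bases of A or T, and GG, with up to 1 other base among the 6. Acta2 and Myl9 each hold 2 such boxes, and the windows of Des, Lmod1, Tpm2, Cnn1 and Mylk hold none. Of 32851 promoter windows in the table, 8.59% hold at least 1 such box and 0.67% hold 2 or more. The Acta2 window lies at chr19:34255374-34255623 on the minus strand and the Myl9 window at chr2:156775214-156775463 on the plus strand. Capitals mark the boxes.
Acta2 promoter: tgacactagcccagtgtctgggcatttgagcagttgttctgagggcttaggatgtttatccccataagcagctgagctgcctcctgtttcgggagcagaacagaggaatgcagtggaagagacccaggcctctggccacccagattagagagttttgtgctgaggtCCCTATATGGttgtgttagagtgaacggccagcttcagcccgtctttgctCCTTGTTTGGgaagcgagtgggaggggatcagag
Myl9 promoter: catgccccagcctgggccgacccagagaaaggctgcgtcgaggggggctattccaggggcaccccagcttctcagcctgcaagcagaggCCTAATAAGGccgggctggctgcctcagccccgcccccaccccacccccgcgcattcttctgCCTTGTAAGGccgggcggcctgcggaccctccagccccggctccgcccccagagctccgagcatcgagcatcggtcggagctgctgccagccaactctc

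In Acta2 the boxes begin at -84 and -34 from the start and each has 1 base other than A or T in its core. In Myl9 the box at -161 has none, a form that 1.47% of the windows hold, and the box at -99 has 1. The core of the hypoxia response element, searched as ACGTG or GCGTG on both strands, occurs in 3 of the 7 windows, those of Lmod1, Cnn1 and Mylk, and in 38.6% of all windows. These matches describe letters in the windows only.

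The probes matter because several contractile genes have close relatives. Each probe is 60 bases long, and the longest run of bases that any pair among the 12 probes shares is 11, between Tagln and Mylk. The probes were compared only with each other and not with the transcripts of relatives, so binding of a relative was not tested. Tpm2, which encodes β-tropomyosin, is read by 2 probes, at chr4:43532262-43532321 and chr4:43531276-43531335 on the minus strand of mm9. The Myh11 probe lies at chr16:14202190-14202249 on the minus strand. The Des probe covers 226 bases of the genome, chr1:75363404-75363629 on the plus strand, so it bridges an intron. The Tpm2 and Myh11 probes each hold at least 1 open reading frame, and capitals in the Des probe mark the only stop codon of the frame read there.
Tpm2 first probe: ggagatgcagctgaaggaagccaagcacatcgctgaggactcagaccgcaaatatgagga
Tpm2 second probe: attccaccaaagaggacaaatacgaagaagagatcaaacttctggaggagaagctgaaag
Myh11 probe: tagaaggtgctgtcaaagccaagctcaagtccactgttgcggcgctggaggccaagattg
Des probe: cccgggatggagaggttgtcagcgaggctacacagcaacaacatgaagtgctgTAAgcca

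All 9 measured contractile genes had higher mean ratios in hypoxic than in normoxic fat, but none of the differences passed the test. With limma and Benjamini-Hochberg adjustment over all tested genes, 0 of the 9 had an adjusted p under 0.05, against 0 of all 16575 genes, which is 0%. At an unadjusted p under 0.05 were 5 of the 9, namely Tagln, Acta2, Cnn1, Myl9 and Mylk, all higher in hypoxia. That count was 3 (Tagln, Acta2 and Cnn1) without hypoxia 7, normoxia 7, normoxia 8 or normoxia 9, each left out alone, and likewise without slide 1, without slide 2 or with slide as a fixed block. It was 2 with the replicate number as a block, 1 (Cnn1) in the deposited value table and 7 with array weights or without the 3 arrays bright in Cy3. Of all genes, 879 were at that level, 427 higher in hypoxia (2.58%) and 452 lower (2.73%). The median difference of the 9 genes was 0.34, against 0.001 over all tested genes, of which the middle 90% lay between -0.18 and 0.18. The difference was above 0 for 9 of 9 contractile genes and for 50.4% of all genes. The 9 genes also varied together between mice, as described further on, so they do not count as 9 separate observations.

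**Figure D1:**
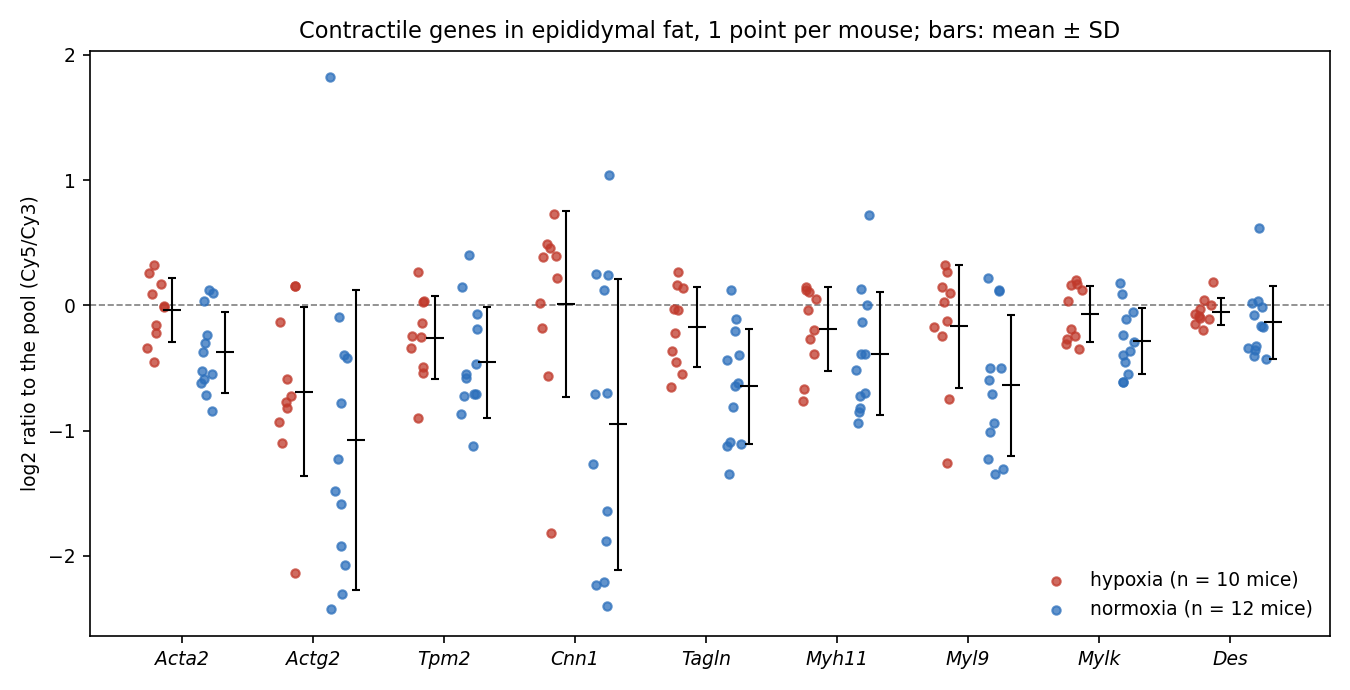
Log2 ratio to the pool (vertical axis) of the 9 measured contractile genes (horizontal axis), 1 point per mouse, hypoxia (red, n = 10) left of normoxia (blue, n = 12), with the mean ± SD as black bars. Cnn1 and Actg2 spread most, the groups overlap for each gene, and 1 normoxic mouse stands at 1.82 for Actg2.

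Among the actins, Acta2 encodes vascular α-actin, the main actin of arterial smooth muscle, and was read at chr19:34316060-34316119 on the minus strand of mm9. It ranged from -0.45 to 0.32 in hypoxic mice, with a median of -0.01, and from -0.85 to 0.12 in normoxic mice, with a median of -0.45. All 10 hypoxic mice lay above the normoxic median, and 6 of 12 normoxic mice lay below the lowest hypoxic mouse. The mean ± SD was -0.03 ± 0.26 (n = 10) in hypoxia and -0.37 ± 0.33 (n = 12) in normoxia. The difference was 0.34 ± 0.12 (SE), 1.27-fold, with a 95% interval of 0.09 to 0.59, and missed the threshold in limma (unadjusted p = 0.00862, adjusted p = 0.782). Acta2 has 10 copies of its probe on the array, whose ratios varied with a median SD of 0.19 within an array, so that the median SE of an array's mean was 0.059. The SD between normoxic mice was 5.49 times that error. The error covers spots within an array only, and each mouse has 1 array. The SD between mice therefore also holds variation of labelling, hybridization and slide.

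Actg2 encodes the γ-actin of enteric and other visceral smooth muscle and was read at chr6:83462904-83462963. Of the 9 measured genes it varied most, 19.0-fold between the lowest and the highest mouse. Hypoxic mice ranged from -2.14 to 0.16 with a median of -0.75, and normoxic mice from -2.43 to 1.82 with a median of -1.36. The lowest and the highest value of both groups were normoxic, in normoxia 8 and normoxia 5. The difference of 0.39 ± 0.37 (SE) had an interval of -0.38 to 1.15 and did not pass (limma adjusted p = 0.982). Without normoxia 5 the difference was 0.65 and without normoxia 8 it was 0.26. It was 0.72 with Feature Extraction's ratio, 0.63 with array weights, 0.62 without slide 1 and 0.16 with slide as a fixed block. Cy5 was well above background on 17 of 22 arrays, 8 hypoxic and 9 normoxic.

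On the actin filament lie tropomyosin, calponin and transgelin. Tpm2 ranged from -0.90 to 0.26 in hypoxia (median -0.25) and from -1.12 to 0.40 in normoxia (median -0.57). Its difference was 0.20 ± 0.16 (SE), with an interval of -0.12 to 0.51 (limma adjusted p = 0.981). The second Tpm2 probe, at the other site printed above, gave 0.29 ± 0.16 (SE). Both sites thus showed a higher mean in hypoxia that stayed within 2 standard errors of 0.

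Cnn1 encodes calponin 1, which binds actin and slows the myosin motor, and its probe lies at chr9:21913058-21913117 on the plus strand. It had the widest gap between the groups. Hypoxic mice ranged from -1.82 to 0.73 with a median of 0.30, and normoxic mice from -2.40 to 1.04 with a median of -0.99. Of the hypoxic mice, 9 of 10 lay above the normoxic median, and 4 of 12 normoxic mice lay below hypoxia 2, the lowest hypoxic mouse. The means were 0.01 ± 0.74 (SD, n = 10) in hypoxia and -0.95 ± 1.16 (SD, n = 12) in normoxia. The difference of 0.96 ± 0.37 (SE), 1.95-fold with an interval of 0.20 to 1.73 on the log2 scale, missed the threshold (limma unadjusted p = 0.0159, adjusted p = 0.833). The mice differed by 10.8-fold.

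Tagln encodes transgelin, also called SM22α, an actin-binding protein of differentiated smooth muscle, and was read at chr9:45738097-45738156 on the minus strand. It ranged from -0.65 to 0.26 in hypoxia (median -0.13) and from -1.35 to 0.12 in normoxia (median -0.63). With 9 of 10 hypoxic mice above the normoxic median and 5 of 12 normoxic mice below the lowest hypoxic mouse, the groups overlapped. Its difference of 0.47 ± 0.16 (SE), 1.39-fold with a log2 interval of 0.15 to 0.80, had the smallest unadjusted p of the 9 genes (limma p = 0.00568, adjusted p = 0.746). It ranked 125 by p among all tested genes.

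Lmod1, leiomodin 1, which starts new actin filaments in smooth muscle, was not well above background. Its Cy5 signal ran from 28.7 to 84.7 with a median of 39.5, beside a median local background of 30. It was well above background on 1 hypoxic and 1 normoxic array, and no difference was computed.

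Of the myosin motor, the heavy chain, the regulatory light chain and the kinase that acts on it were measured. Myh11 encodes the smooth muscle myosin heavy chain, the most specific of the contractile markers. Hypoxic mice ranged from -0.76 to 0.15 (median -0.11) and normoxic mice from -0.94 to 0.72 (median -0.46). The difference was 0.20 ± 0.17 (SE), with an interval of -0.14 to 0.54 (limma adjusted p = 0.981), and 0.30 without normoxia 2, the highest mouse. Cy5 was well above background on 19 of 22 arrays.

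Myl9 encodes the regulatory light chain that the kinase phosphorylates, read at chr2:156607301-156607360 on the plus strand. It ranged from -1.26 to 0.32 in hypoxia (median -0.05) and from -1.35 to 0.22 in normoxia (median -0.65), with 8 of 10 hypoxic mice above the normoxic median. The difference of 0.47 ± 0.20 (SE), 1.39-fold, had an interval of 0.06 to 0.89 (limma unadjusted p = 0.0279, adjusted p = 0.873). The difference was of the size seen for Tagln, with a wider interval.

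Mylk encodes myosin light chain kinase, and its brighter probe lies at chr16:35001266-35001325 on the plus strand. It ranged from -0.35 to 0.20 in hypoxia (median -0.08) and from -0.62 to 0.18 in normoxia (median -0.33), and 6 of 12 normoxic mice lay below the lowest hypoxic mouse. The difference of 0.22 ± 0.10 (SE) had an interval of 0.005 to 0.43 (limma unadjusted p = 0.0452, adjusted p = 0.933). The other Mylk probe, at chr16:34953958-34954017, was well above background on 6 arrays and was not tested, so the value rests on 1 site of the gene.

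Des encodes desmin, the intermediate filament that ties the contractile units to each other and to dense bodies. It ranged from -0.20 to 0.19 in hypoxia (median -0.08) and from -0.43 to 0.62 in normoxia (median -0.17). It had the smallest difference of the 9, 0.09 ± 0.10 (SE) with an interval of -0.11 to 0.29 (limma adjusted p = 0.985), and 0.15 without normoxia 6, the highest mouse. Over its 10 probe copies the median SE of an array's mean was 0.047. The SD between normoxic mice was 6.14 times that, with the same limit as for Acta2. Cy5 was well above background on 16 of 22 arrays.

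For each of the 9 genes the SD was larger among normoxic than among hypoxic mice, by 1.14 times for Myl9 up to 2.64 times for Des. By interquartile range Mylk alone went the other way, at 0.41 in hypoxia and 0.38 in normoxia. The share of all tested genes with a larger normoxic SD was not computed. The larger spread can therefore not be called particular to the contractile genes, and the difference in spread was not tested.

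**Figure D2:**
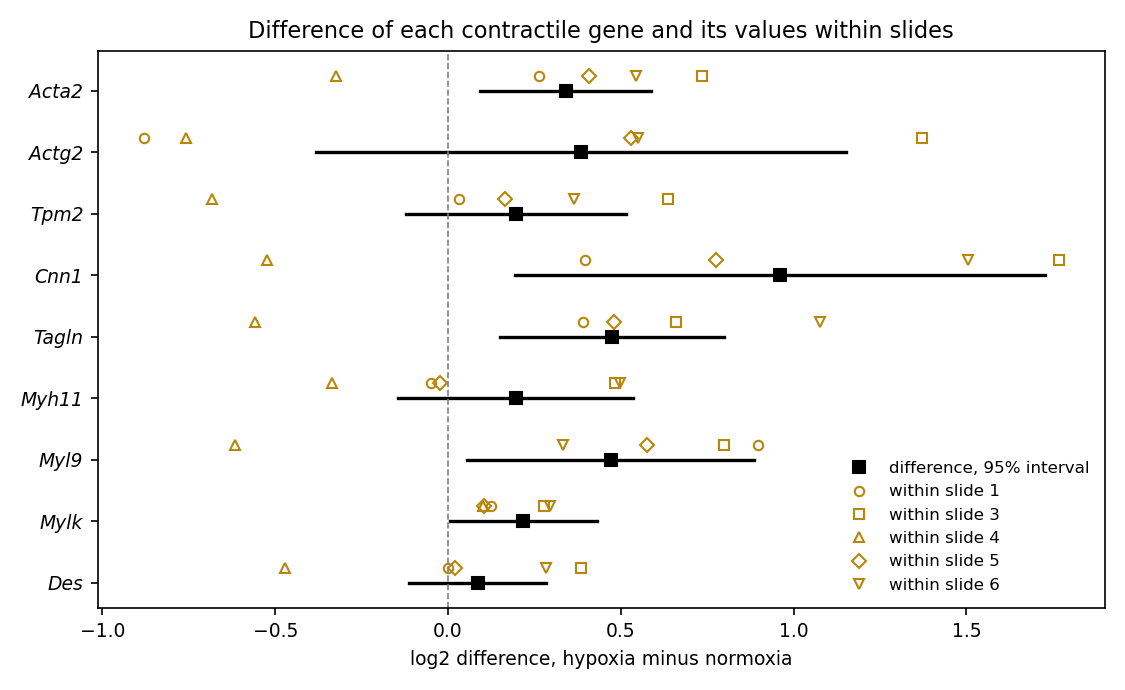
Log2 difference, hypoxia minus normoxia (horizontal axis), of each measured contractile gene (vertical axis), with its 95% interval in black and, as open symbols, the difference between group means within each of the 5 slides that carry both groups. All differences lie above 0, and the slide 4 values lie below 0 for each gene except Mylk.

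The arrays were spread over 6 slides, of which slides 1, 3, 4, 5 and 6 carry 2 arrays of each group and slide 2 carries normoxia 9 and 10 alone. Within slides the mean difference stayed above 0 for each of the 9 genes, at 0.78 for Cnn1, 0.41 for Tagln, 0.40 for Myl9, 0.32 for Acta2, 0.18 for Mylk, 0.16 for Actg2, 0.11 for Myh11, 0.10 for Tpm2 and 0.04 for Des. Mylk was higher in hypoxia on 5 of 5 slides. Acta2, Tpm2, Cnn1, Tagln and Myl9 were higher on 4 of 5, Actg2 and Des on 3, and Myh11 on 2. Slide 4, with hypoxia 6 and 10 and normoxia 4 and 6, had negative differences for each gene except Mylk, from -0.33 for Acta2 to -0.76 for Actg2. No fit without slide 4 was run. With slide as a fixed block, or without slide 2, the median difference of the 9 genes was 0.18 in place of 0.34. Normoxia 9 and 10 were among the mice with low contractile transcripts.

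Mice differed in the contractile genes as a set. Averaged over the 9 genes, the highest mice were hypoxia 3 at 0.21, hypoxia 8 at 0.18 and normoxia 2 at 0.20, and the lowest were normoxia 8 at -1.17, normoxia 9 at -1.13 and normoxia 11 at -1.01. The hypoxic mice ran from -0.79 (hypoxia 2) to 0.21, and the normoxic mice from -1.17 to 0.20. Ratios were averaged unscaled, so Cnn1 and Actg2, which spread most, weighed most. In normoxia 8, 9, 10 and 11 each of the 9 genes lay below its group mean, and in normoxia 2, 4 and 5 each lay above it. Hypoxia 8 was above its group mean for all 9 genes and hypoxia 6 for none.

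**Figure D3:**
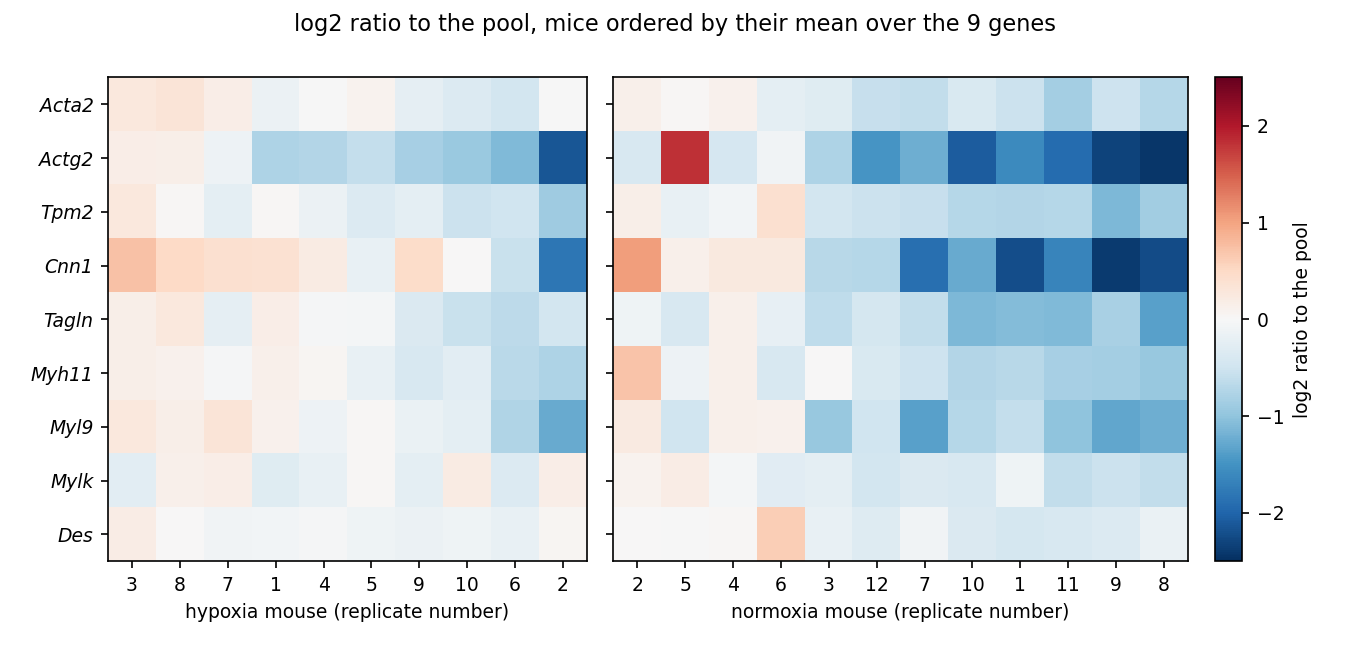
Log2 ratio to the pool (colour) of the 9 contractile genes (rows) in each mouse (columns), hypoxia left and normoxia right, with the mice of each group ordered by their mean over the 9 genes. The normoxic columns at the right end (normoxia 8, 9 and 11) are low for most genes, Actg2 is high in normoxia 5 alone, and Cnn1 is low in hypoxia 2.

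Whether the genes moved together from mouse to mouse was measured with the group means removed, over 22 mice and 36 pairs of genes. Pearson's r was above 0 for all 36 pairs, between 0.26 and 0.90 with a median of 0.68. By a two-sided permutation test within groups with 100000 resamples and Benjamini-Hochberg adjustment over the 36 pairs, 29 pairs passed, and 28 by Spearman's rho. Pairs of other genes were not put through this test, so no share over other genes stands beside these counts. Leaving out the 2 mice farthest from the median of the first gene of a pair, 31 pairs passed. With slide means removed as well, the median r was 0.68 and 11 pairs passed. Mice can then be exchanged only within a slide and group, so the smallest adjusted p reached was 0.00703.

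The closest pair was Tpm2 and Cnn1, tropomyosin and calponin. Their r was 0.90 (permutation adjusted p = 6e-05, the smallest among the 36 pairs and shared by several) and rho was 0.93 (permutation adjusted p = 7.2e-05). It was 0.89 without normoxia 2 and normoxia 6, the 2 mice farthest out, and 0.88 within slides (exact adjusted p = 0.0126). Cnn1 with Myl9 had an r of 0.88, a rho of 0.86 and an r within slides of 0.87, and Cnn1 with Myh11 an r of 0.86, a rho of 0.82 and 0.89 within slides. Acta2 passed in 8 of its 8 pairs. Actg2, Tpm2, Cnn1, Tagln, Myh11 and Myl9 passed in 7 of 8 each, Des in 5 and Mylk in 3.

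Mylk stood furthest from the others, with a median r of 0.39 over its 8 pairs. The lowest pair of all was Tpm2 with Mylk, with an r of 0.26, a rho of 0.24 and an r within slides of 0.14 (permutation adjusted p = 0.26 for r). Among hypoxic mice the median r over the 36 pairs was 0.59, with 30 pairs above 0, and among normoxic mice it was 0.74, with 36 above 0. The pairs below 0 in hypoxia all involve Mylk, with r from -0.46 to -0.08. For Tpm2 with Mylk, r was -0.46 in hypoxia and 0.64 in normoxia, and for Cnn1 with Mylk -0.30 in hypoxia and 0.71 in normoxia. The difference between the groups was not tested, with 10 and 12 mice.

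**Figure D4:**
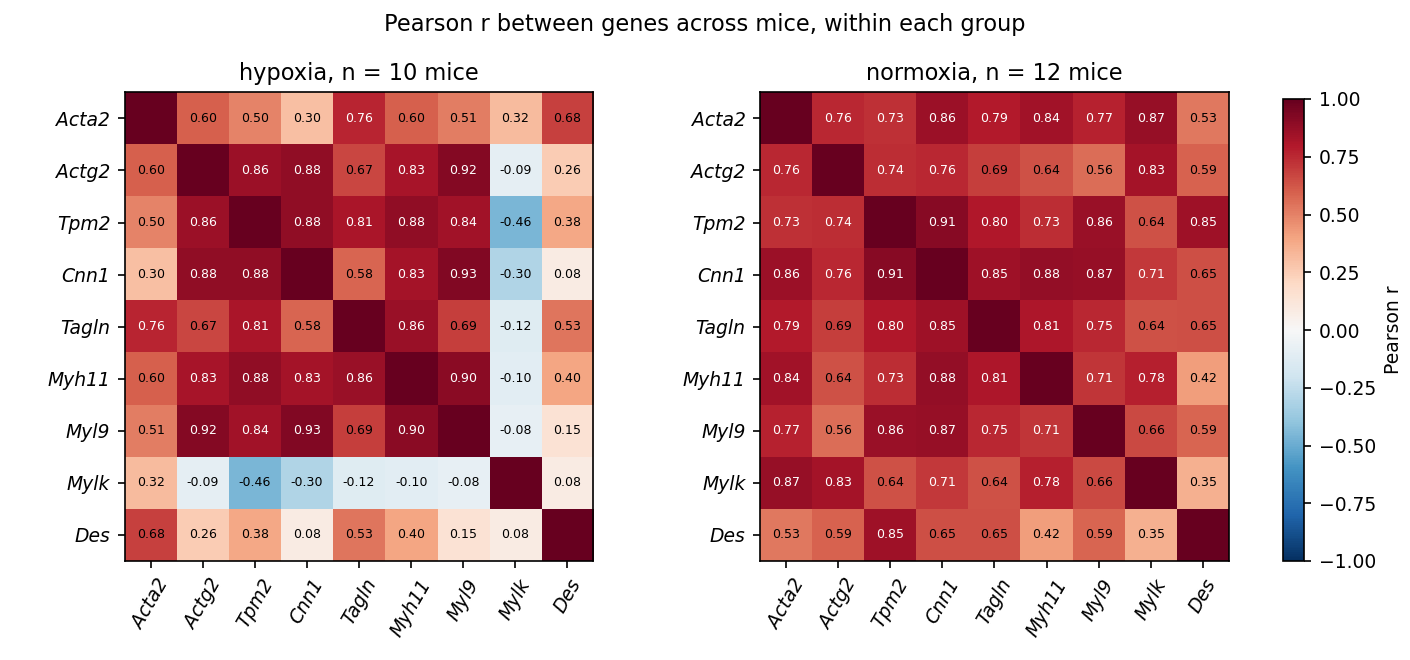
Pearson r (colour and number) between the 9 contractile genes across mice, within hypoxia (left, n = 10) and within normoxia (right, n = 12). Most pairs lie above 0.5 in both panels, and the row of Mylk holds r from -0.46 to 0.32 in hypoxia and from 0.35 to 0.87 in normoxia.

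Array brightness varied and was set against the 9 genes, but whether it caused their group differences was not tested. The share of spots with Cy5 well above background ran from 15.6% to 76.8% of an array's spots and was under 19% on the 4 arrays of slide 1. The share in Cy3 was over 80% on hypoxia 3, normoxia 2 and normoxia 6, which were among the mice with higher contractile ratios. These 3 arrays are called bright in Cy3 by that share only. The highest median Cy3 signal was on normoxia 4 (289, with a share of 40.6%), which does not count among them. Of 18 correlations of the 9 genes with either share, none passed after Benjamini-Hochberg adjustment. With the Cy3 share r was above 0 for all 9 genes, from 0.06 for Mylk to 0.65 for Des. With the Cy5 share the signs were mixed. The highest were Des with the Cy3 share (r = 0.65, rho = 0.38, permutation adjusted p = 0.0718 for r) and Tpm2 with it (r = 0.58, rho = 0.28, permutation adjusted p = 0.0718 for r), at 0.24 and 0.26 without 2 arrays. Without the 3 Cy3-bright arrays the median difference of the contractile genes was 0.37, and 27 of 36 pairs passed.

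The genes whose pattern over the 22 arrays was most like the mean of the 9 contractile genes were Pgm5, Cpe, Mgp, Art4, Cldn11, Gm1987, Gm13304 and Slc38a5, with r from 0.91 to 0.80. Over 16566 other genes the median r was -0.07, the middle 90% lay between -0.50 and 0.49, and 7 genes, 0.0423%, reached 0.8. Pgm5, a phosphoglucomutase relative found at adherens junctions and in muscle, had the highest r, 0.91, with a difference of 0.08 ± 0.15 (SE). Mgp, matrix Gla protein, an inhibitor of calcification in vessel walls, had an r of 0.87. It averaged -0.01 ± 0.56 in hypoxia and -0.46 ± 0.47 in normoxia (SD, n = 10 and 12; limma adjusted p = 0.882). Art4 (r = 0.83) is the gene next to Mgp on its chromosome in the RefSeq table. Cpe, the prohormone-processing carboxypeptidase E, had an r of 0.87 and Cldn11, a tight junction claudin, an r of 0.83. The 9 genes entered the mean unscaled, so Cnn1 and Actg2, which spread most, weighed most in it, here and in the lists below. These r are descriptions, and the 22 mice share slides and array brightness.

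Around the contractile genes, 6 pathway lists were followed, and no gene in them passed the limma threshold after adjustment. Of all genes, 50.4% were above 0, 2.58% were higher in hypoxia at an unadjusted p under 0.05 and 2.73% were lower. These shares belong beside the counts of each list, including the marker lists further on. Some genes stand in several lists. Of 34 further genes of the thin filament and its linkers, 33 were tested, with 27 differences above 0 and a median of 0.08. At an unadjusted p under 0.05 were 3, all higher in hypoxia. Itga8, the integrin α8 chain of smooth muscle, averaged 0.07 ± 0.25 in hypoxia and -0.24 ± 0.33 in normoxia (SD, n = 10 and 12), a difference of 0.32 ± 0.12 (SE). Cnn3, a calponin found outside muscle too, differed by 0.21 ± 0.08 and Actn4, a non-muscle α-actinin, by 0.21 ± 0.08 (SE). Their adjusted p in limma was 0.832 for Itga8 and 0.865 for Cnn3 and Actn4.

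The 22 genes of the myosin motor, its kinases and its phosphatase had a median difference of 0.006, with 13 above 0 and none at an unadjusted p under 0.05. The smallest p belonged to Myl12a, a non-muscle regulatory light chain (0.14 ± 0.07, SE), Calm3, a calmodulin (-0.12 ± 0.09), and Rock1, a kinase that inhibits myosin phosphatase (-0.09 ± 0.08). Of 20 genes of calcium and potassium handling, 12 were tested, with 6 above and 6 below 0 and a median of 0.009. Stim1, the sensor of calcium stores, differed by 0.27 ± 0.12, Itpr1, a calcium release channel, by -0.13 ± 0.09, and Orai1, the channel that Stim1 opens, by 0.14 ± 0.10 (SE). Kcnmb1 and Pln were well above background on no array.

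Of 37 regulators of the contractile programme, 31 were tested, with 21 above 0 and a median of 0.05, and 3 had an unadjusted p under 0.05, all higher in hypoxia. Smad7, the inhibitory Smad that transforming growth factor β induces, averaged 0.15 ± 0.26 in hypoxia and -0.34 ± 0.27 in normoxia (SD, n = 10 and 12), a difference of 0.49 ± 0.11 (SE) with a limma adjusted p of 0.233. Smad2, which carries that signal, differed by 0.17 ± 0.07, and Klf4, which represses contractile genes in smooth muscle, by 0.24 ± 0.12 (SE). Myocd, which encodes myocardin, was not bright enough to test.

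Targets of SRF and its MRTF partners that other cells use too numbered 18, of which 14 were tested. All 14 differences were above 0, with a median of 0.22, against 50.4% of all genes above 0. At an unadjusted p under 0.05 were 5, all higher in hypoxia, against 2.58% of all genes. Myl9, a contractile gene described above, is among the 14 and among the 5. Cnn2, Tpm1, Flna and Vcl were also counted in the thin filament list. Ccn2, connective tissue growth factor, averaged -0.09 ± 0.48 in hypoxia and -0.69 ± 0.44 in normoxia (SD, n = 10 and 12). Its difference was 0.60 ± 0.18 (SE; limma adjusted p = 0.544). Ccn1, a related matrix protein, differed by 0.52 ± 0.18 and Zyx, which encodes the focal adhesion protein zyxin, by 0.24 ± 0.09 (SE; limma adjusted p = 0.746 and 0.832). Ccn2 had an r of 0.71 with the mean of the contractile genes, Ccn1 0.43 and Zyx -0.27.

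Of 21 receptors of vascular smooth muscle, 15 were tested, with 12 above 0, a median of 0.06 and none at an unadjusted p under 0.05. The smallest p belonged to S1pr2, a sphingosine 1-phosphate receptor (0.18 ± 0.10, SE), P2rx1, an ATP-gated channel (0.18 ± 0.10), and Ednrb, an endothelin receptor (0.15 ± 0.10).

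**Figure D5:**
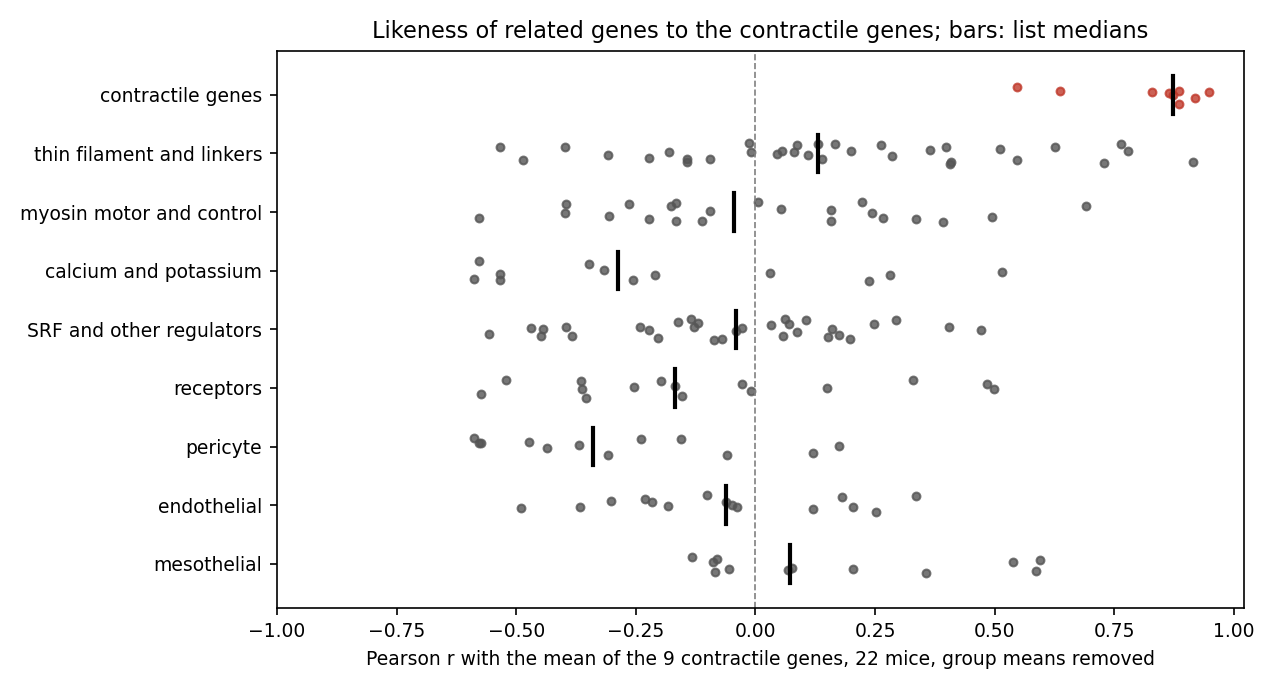
Pearson r of each gene with the mean of the 9 contractile genes over 22 mice, with group means removed (horizontal axis), by gene list (vertical axis), with list medians as black bars. The contractile genes sit between 0.55 and 0.95, their own values being part of the mean, and the medians of the other 8 lists plotted lie between -0.34 and 0.13.

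The same measure was taken for the related lists, whose genes are not part of the mean except for Myl9. The median r with the mean of the contractile genes was 0.13 for the thin filament genes, of which 7 reached 0.5, -0.05 for the myosin genes, -0.29 for calcium and potassium handling, -0.04 for the regulators, 0.12 for the SRF targets and -0.17 for the receptors. It was -0.34 for pericyte markers and -0.06 for endothelial markers, the other cells of the vessel wall.

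All 15 adipocyte markers were bright enough to be tested, and so were all pericyte, endothelial, mesothelial and macrophage markers. Being tested therefore does not identify the tissue. The median difference of the adipocyte markers was 0.02. Their mean ratio ran from -0.07 to 0.66 in hypoxic mice and from -0.16 to 0.77 in normoxic mice, and the largest differences were Adrb3 (-0.76 ± 0.26, SE) and Fabp4 (0.29 ± 0.24). Of the other cells of vessels, the 12 pericyte markers were all tested, with a median of 0.04 and a mean ratio of -0.15 to 0.12 in hypoxia and -0.20 to 0.08 in normoxia, and with Cspg4 (-0.24 ± 0.10) and Rgs5 (0.23 ± 0.11) furthest from 0. The 15 endothelial markers had a median of 0.02 and ran from -0.28 to -0.01 in hypoxia and from -0.32 to 0.08 in normoxia, with Kdr (0.23 ± 0.07) and Vwf (0.18 ± 0.13) furthest. None of these genes passed after adjustment in limma.

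Other cells that share contractile proteins or lie beside the fat pad were followed in the same way, and their part in the result was not tested. All 12 mesothelial markers were above 0, with a median of 0.16 and a mean ratio of -0.74 to 0.73 in hypoxia and -0.85 to -0.001 in normoxia, led by Gpm6a (0.36 ± 0.16, SE) and Upk3b (0.32 ± 0.17). Their median r with the mean of the contractile genes was 0.07, and 3 of the 12, the epithelial keratins Krt19 (0.60), Krt18 (0.59) and Krt8 (0.54), were above 0.5. Of 14 skeletal muscle markers 5 were tested, with a median of 0.007 and a range of -0.21 to 0.32 in hypoxia and -0.19 to 0.23 in normoxia. Neb (-0.30 ± 0.13) and Acta1 (0.22 ± 0.14) were furthest from 0, and the defining Ckm, Mb, Myh1 and Mylpf were well above background on no array. Of 7 cardiac markers 1 was tested, Tnnt2, which ran from -1.41 to 0.88 in hypoxia and from -1.76 to 1.15 in normoxia (0.26 ± 0.32) and had an r of 0.57 with the contractile genes. Of 12 markers of epididymis and vas deferens, whose wall holds smooth muscle, 1 was tested. That gene, Rnase10, ran from -1.88 to 0.07 in hypoxia and from -1.84 to 3.74 in normoxia (-0.63 ± 0.48), with an r of 0.56.

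Of 9 red blood cell markers 5 were tested, all above 0 with a median of 0.36 and a mean ratio of -0.31 to 0.92 in hypoxia and -0.85 to 0.56 in normoxia. Hba-a1 (0.60 ± 0.17, SE) and Hbb-b2 (0.43 ± 0.17) were furthest from 0, and the median r of the 5 with the contractile genes was 0.02. Of 14 fibroblast and progenitor markers, 13 were tested, with 6 above and 7 below 0 and a mean ratio of -0.13 to 0.14 in hypoxia and -0.24 to 0.29 in normoxia. Fap (-0.19 ± 0.12) and Postn (0.14 ± 0.17) were furthest. The 14 macrophage markers had a median of 0.10, with 11 above 0 and a mean ratio of -0.36 to 0.23 in hypoxia and -0.39 to 0.01 in normoxia, led by C1qb (0.39 ± 0.11) and C1qa (0.24 ± 0.11). Of 10 nerve and Schwann cell markers 7 were tested, with a median of 0.08 and a mean ratio of -0.11 to 0.24 in hypoxia and -0.32 to 0.18 in normoxia, with Uchl1 (0.18 ± 0.07) furthest from 0.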

How the data were processed

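Agilent Feature Extraction 10.7.3.1 made the scanner files, per the submitters' processing notes. Mean spot signals and median local backgrounds in them are deposited intensity values as scanned, not normalized. Per the file headers, the log10 ratio of Cy5 over Cy3 beside them is already background-subtracted and dye-normalized by that software. A table of values for the whole series, also deposited, has log2 values for 33845 spots, with a median of 6.299 on every array and correlations of 0.902 to 0.999 with log2 Cy5 and 0.896 to 0.987 with log2 Cy3. Cy3 was the closer channel on hypoxia 3 (0.978 for Cy3, 0.971 for Cy5) and normoxia 6 (0.962 for Cy3, 0.902 for Cy5). It therefore holds levels with equal medians. For its scaling by the authors no method was found (not given in the sources used here). Of the 10 genes, 9 were matched to its rows.

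Each array holds 62976 spots, 59305 of them biological, for 55681 probes. The intensities were corrected by normexp (offset 50) and then by loess within arrays, control spots having no weight (limma 3.58.1, R 4.3.3). Spots flagged as outliers, 0.462% of the biological spots, were left out and saturated spots kept. Replicate spots were averaged. Testing required a Cy5 signal well above background on 10 or more arrays, and a gene took its brightest tested probe. No value column was left unmapped to a sample (0 columns). Group was the only term in the fit (lmFit, eBayes), with Benjamini-Hochberg adjustment over 16575 genes and a threshold of 0.05. Precision is limited by how many arrays there are, and the median SE of a gene's log2 difference was 0.098. Probe positions come from the file headers' build, mm9, of which no genome was used here, and so exons and UTRs are not assigned to probes. Gene names were updated through RefSeq, GRCm38.p6.

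The genes, the related lists and the tests were chosen with earlier results of these data known. The text names every contractile gene, the 3 genes with the smallest unadjusted p of each pathway list where none passed, the 8 genes with a symbol most like the mean of the contractile genes, and of each marker list the 2 with the largest absolute difference, 1 of which is not reported here; genes listed only as not measured, 3 keratins, and r values beside named genes, were added after the values were seen. Correlations were computed in Python with numpy. Scripts were tested on simulated data.

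Hypoxia and normoxia mice share replicate numbers in the labels. Deviations from the group means of same-numbered mice correlated between -0.47 and 0.25. Differently numbered mice were not compared, so these values cannot show whether the numbers pair the mice. Alternatives were other background corrections and scalings, Feature Extraction's ratio, the value table, other filters, slide as a block, array weights and a replicate block. Slide 1, slide 2 and each mouse were also left out in turn. The remaining slides were always kept, among them the slide where most contractile genes were lower in hypoxia.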

Additional observations from a re-analysis of the deposited data

Results flagged for a closer look

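In 1 of the 9 contractile genes a hypoxic mouse stood apart from its group by Dixon's criterion. Cnn1 in hypoxia 2 was at -1.82, against -0.57 to 0.73 in the other 9 hypoxic mice, and the gap made up 0.491 of the range. In that mouse Actg2 (-2.14), Tpm2 (-0.90), Myh11 (-0.76) and Myl9 (-1.26) were also the lowest of the hypoxic group, while Acta2 was at -0.02 and Mylk at 0.17. Chance puts about 1 in 20 groups past the criterion, which is 0.45 of the 9 searched. Without hypoxia 2 the difference of Cnn1 was 1.16. Normoxia has 12 mice and was not searched.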

How the results depend on the processing

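No contractile gene passed the adjusted threshold under 16 other settings or with any 1 of the 22 mice left out, and none of their differences changed sign. The median difference of the 9 genes ran from 0.18 (slide as a fixed block, and likewise without slide 2) to 0.40 (array weights), and with 1 mouse left out from 0.26 to 0.39. Over all genes, 0 passed in limma (879 at an unadjusted p under 0.05), and 1 passed with Feature Extraction's ratio, 1 with arrays scaled to equal spread, 2 with slide as a fixed block, 1 with slide as a random block, 2 without slide 1 and 4 with array weights. With 1 mouse left out, 0 to 3 genes passed (3 without hypoxia 7, 1 each without hypoxia 4, normoxia 4 and normoxia 8). The cause was not tested. Of the 36 pairs, 11 passed with slide means removed in place of 29, where fewer rearrangements are possible; 27 passed without the 3 Cy3-bright arrays and 27 without slide 1, both chosen after the data were seen.

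Whether the replicate numbers pair the mice was left undecided. With the number as a replicate block, the median difference was 0.26, Cnn1 differed by 0.92 and Tagln by 0.45, and 0 genes passed. In the deposited value table Acta2 differed by 0.23, Tagln by 0.36, Myh11 by 0.13 and Des by 0.18; Des differed by 0.17 with array weights and by 0.15 without the 3 Cy3-bright arrays. Of the 9 genes, 3 to 6 were at an unadjusted p under 0.05 with 1 mouse left out and 1 to 7 under the other settings. The signal limits Lmod1, Actg2, Des and Myh11, which were not well above background on every array, and dim probes have compressed ratios under an offset of 50.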
